A study of Mus musculus with 3 samples.

Results

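The miR-148 and miR-152 seed family was followed through 3 small-RNA libraries. Its members were taken by name from the count tables: miR-148a-3p, miR-148a-5p, miR-148b-3p and miR-152-3p, which are 4 of the 1915 mature miRNA entries. The 5p arms of the remaining hairpins, miR-148b-5p and miR-152-5p, are given beside them. The libraries came from B16 cells, a mouse melanoma line of strain C57BL/6J, from exosomes that B16 cells released, and from exosomes of JB6, a line from normal mouse skin of strain BALB/c by its labels. No treatment or genotype was named for any of them, and each line stands for its source alone. Exosomes are small membrane vesicles shed into the culture medium, here harvested by ultracentrifugation, and no source used here names the medium or serum. Each group held 1 library, so no difference below has a replicate check, and JB6 cells themselves were not analysed here. Line, strain and disease state cannot be told apart when the exosome libraries are compared. JB6 exosomes and B16 cells differ in all of these and also in being vesicles or cells, which cannot be told apart either.

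A miRNA is cut from a hairpin transcript as a short duplex, and usually the arm called the guide stays in the silencing complex while the other, the passenger, is degraded. The guide finds messenger RNAs mainly through its seed, which is bases 2 to 8 from its 5′ end, so miRNAs with 1 seed can share targets. In this family the 3p arm is the guide. Known targets include the maintenance DNA methyltransferase Dnmt1 and, in melanocytes, the lineage transcription factor Mitf. miR-148a is known as an abundant miRNA of liver and milk.

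The 3 guide arms are shown because their counts separate molecules that differ at only a few bases outside the seed. The seed is in capitals, and the sequences are RefSeq's on GRCm38.p6.
miR-148a-3p: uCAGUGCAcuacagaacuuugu
miR-148b-3p: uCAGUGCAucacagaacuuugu
miR-152-3p: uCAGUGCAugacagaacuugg

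Counted from the 5′ end, miR-148b-3p differs from miR-148a-3p by C9U and U10C, which is 90.9% identity over 22 bases. miR-152-3p differs from miR-148a-3p by C9U, U10G and U20G and is 21 bases long. Between miR-148b-3p and miR-152-3p the differences are C10G and U20G. Of the 1623 table entries matched to a RefSeq mature sequence, 3 carry CAGUGCA at bases 2 to 8, and they are these 3 guides. The number of mismatches that the authors' mapping allowed is not given, so reads may be split between members.

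The passenger arms are shown because their seeds are not those of the guides. Their bases 2 to 8 are in capitals.
miR-148a-5p: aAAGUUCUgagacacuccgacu
miR-148b-5p: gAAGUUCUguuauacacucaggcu
miR-152-5p: uAGGUUCUgugauacacuccgacu

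miR-148a-5p and miR-148b-5p share the seed AAGUUCU with each other and with no other matched entry, and miR-152-5p alone has AGGUUCU. Each pair of arms lies in a single hairpin, printed here to show where the arms sit, with both mature arms in capitals.
Mir148a: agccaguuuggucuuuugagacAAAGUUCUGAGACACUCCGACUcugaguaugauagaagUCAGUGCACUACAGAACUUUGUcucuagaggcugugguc
Mir148b: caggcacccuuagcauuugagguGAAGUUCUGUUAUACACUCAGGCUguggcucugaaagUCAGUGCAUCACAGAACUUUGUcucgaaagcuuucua
Mir152: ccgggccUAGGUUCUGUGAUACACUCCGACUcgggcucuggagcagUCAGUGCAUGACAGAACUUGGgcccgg

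In GRCm38.p6, Mir148a lies at chr6:51269812-51269910 on the minus strand, outside annotated genes. The nearest gene of any kind is the long non-coding RNA Gm32479, 13622 bases away, and the nearest protein-coding gene is Nfe2l3, 162760 bases away. Mir148b lies at chr15:103285125-103285221 on the plus strand, in intron 1 of Copz1 and on the same strand. Mir152 lies at chr11:96850393-96850465 on the plus strand, in intron 1 of Copz2, also on the same strand. Copz1 and Copz2 encode related zeta subunits of the COPI vesicle coat. None of the 3 hairpins overlaps an exon of another annotated gene.

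The libraries differed in depth, with 7925726 miRNA reads in B16 cells, 45677 in their exosomes and 4495956 in JB6 exosomes. The lowest count listed in any library was 10, so a listed 0 stands for at most 9 reads, or 1.14, 197 and 2.002 RPM in the same order, where RPM is reads scaled to 1000000 miRNA reads. Levels below are shares of the miRNA reads of a library, with exact (Clopper-Pearson) 95% intervals. These cover counting error only, since 1 library per group gives no spread between samples. Copies of a molecule made by PCR are counted as reads of their own, so the intervals can be too narrow even for the counting of molecules. In a bulk library, fewer cells or vesicles that carry a miRNA cannot be told apart from less of it in each. Among fixed marker lists, the melanocyte miRNA miR-211-5p had 21080 reads in B16 cells, 83 in their exosomes and a listed 0 in JB6 exosomes, while miR-137-3p, also of that list, was listed at 0 throughout. The keratinocyte miRNAs miR-205-5p and miR-203-3p had a listed 0 and 13 reads in JB6 exosomes, and the 4 miRNAs of the epithelial list summed to 7.78 RPM there. The fibroblast list summed to 38314 RPM in B16 cells, 80281 RPM in their exosomes and 34446 RPM in JB6 exosomes. Nearly all of that was miR-143-3p, at 35975, 76143 and 32173 RPM, and the other members went different ways. miR-145a-5p had 861, 2561 and 11.3 RPM, and miR-199a-3p 1478, 1576 and 2063 RPM. miR-214-3p had a listed 0 in both B16 libraries and 198 RPM in JB6 exosomes.

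The dominant guide arm was miR-148b-3p in both B16 libraries and miR-148a-3p in JB6 exosomes. Of the guide-arm reads of B16 cells, 70.8% were miR-148b-3p (70.5 to 71.1), 28.2% miR-152-3p (27.9 to 28.5) and 0.962% miR-148a-3p (0.897 to 1.03). In B16 exosomes the shares were 64.1% (60.8 to 67.3), 24.7% (21.9 to 27.7) and 11.2% (9.20 to 13.5), so the order of the members was that of the cells. In JB6 exosomes 99.4% of the guide-arm reads were miR-148a-3p (99.34 to 99.38), 0.425% were miR-148b-3p (0.412 to 0.438) and 0.215% were miR-152-3p (0.206 to 0.224). These shares compare members within a library and need no scaling between libraries.

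**Figure D1:**
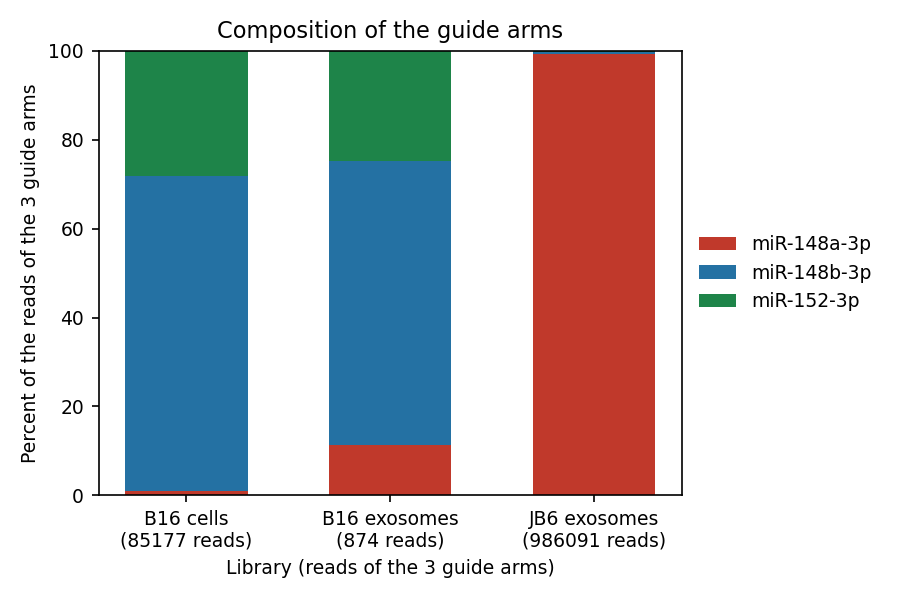
Stacked bars give the percent of the reads of the 3 guide arms held by each member in each library (1 library per group, number of reads under each bar). miR-148b-3p fills 70.8% of the B16 cell bar and 64.1% of the B16 exosome bar, and miR-148a-3p fills 99.4% of the JB6 exosome bar.

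Because the guides share a seed, their reads were also summed. The sum was 85177 reads in B16 cells, 874 in their exosomes and 986091 in JB6 exosomes. That was 1.07% of all miRNA reads in the cells (1.068 to 1.082), 1.91% in their exosomes (1.79 to 2.04) and 21.9% in JB6 exosomes (21.89 to 21.97). The seed was thus carried by a share 20.4-fold higher in JB6 exosomes than in B16 cells (20.3 to 20.6), 1.78-fold higher in B16 exosomes than in B16 cells (1.66 to 1.90), and 11.5-fold lower in B16 exosomes than in JB6 exosomes (10.7 to 12.3). The direction of the middle value turned with the scaling: the sum was 1.14-fold lower in B16 exosomes than in B16 cells with TMM factors and 9.47-fold lower with the authors' totals. The other values kept their direction under the 5 other scalings, at 17.9-fold to 122-fold and at 14.4-fold to 170-fold.

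miR-148a-3p, the member from the intergenic hairpin, had the widest range. It had 819 reads in B16 cells, 98 in their exosomes and 979782 in JB6 exosomes. Its level was 103 RPM (96.4 to 111), 2145 RPM (1742 to 2614) and 217925 RPM (217544 to 218307). It was low in the cells, intermediate in their exosomes and high in JB6 exosomes, and no counting interval overlapped another. By read count it ranked 177 in B16 cells, 51 in their exosomes and 2 in JB6 exosomes. In JB6 exosomes it had 0.867 reads per read of miR-122-5p, the entry above it, and 4.13 reads per read of miR-92a-3p, the entry below it. In the B16 libraries its neighbours in the order were not separated from it by counting error: miR-700-5p and miR-143-5p in the cells, and let-7d-5p and miR-30e-3p in the exosomes.

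miR-148b-3p, from the Copz1 intron, had 60305 reads in B16 cells, 560 in their exosomes and 4189 in JB6 exosomes. Its level was 7609 RPM (7548 to 7670), 12260 RPM (11271 to 13312) and 932 RPM (904 to 960). The B16 libraries were both above the JB6 exosomes, which is the reverse of miR-148a-3p. The member ranked 25, 18 and 56. let-7a-5p in B16 exosomes, and miR-486a-3p and miR-140-3p in JB6 exosomes, were neighbours that did not differ from it beyond counting error.

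miR-152-3p, from the Copz2 intron, had 24053 reads in B16 cells, 216 in their exosomes and 2120 in JB6 exosomes. Its level was 3035 RPM (2997 to 3073), 4729 RPM (4120 to 5401) and 472 RPM (452 to 492), with ranks 46, 34 and 77. Its order over the libraries was that of miR-148b-3p. Both of its neighbours were within counting error in B16 exosomes (miR-129-5p and miR-5099) and in JB6 exosomes (miR-345-3p and miR-26a-5p), and in B16 cells that held for miR-146a-5p above it but not for miR-744-5p below it.

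miR-148a-5p, the passenger of miR-148a-3p, was listed at 0 in both B16 libraries and had 17 reads in JB6 exosomes, a level of 3.78 RPM (2.20 to 6.05). The other members were listed in every library. Its JB6 exosome level was at least 3.33-fold above the cells, with 9 reads in place of the listed 0, and the counting interval of that bound began at 1.40-fold. The limit set by 9 reads in B16 exosomes lies above 3.78 RPM, so no direction could be read there.

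**Figure D2:**
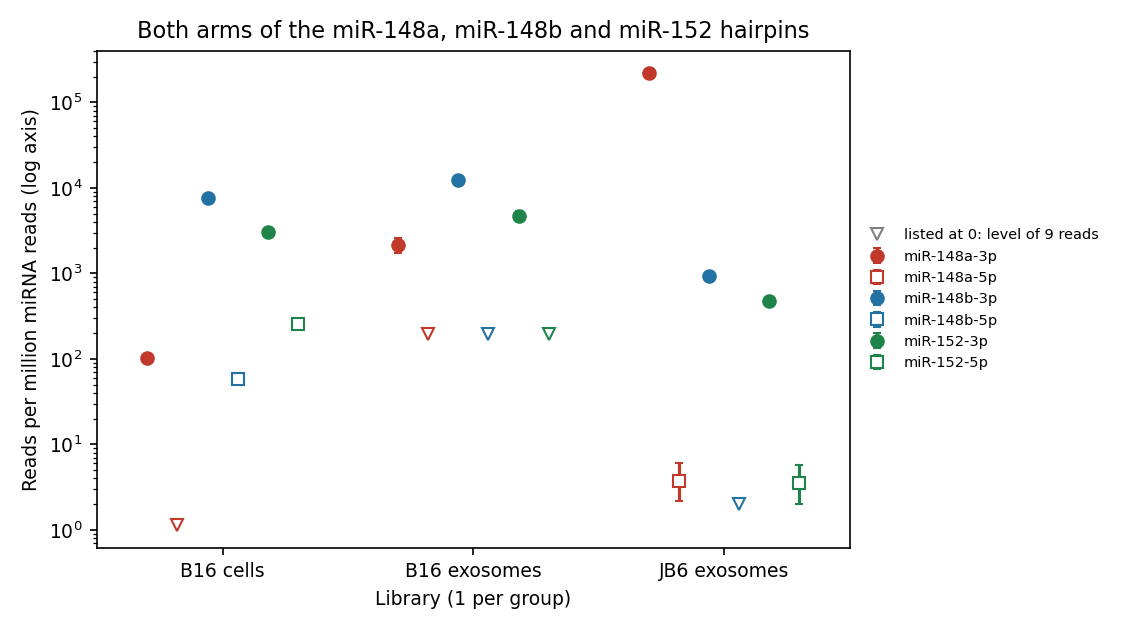
Points give the level of both arms of the 3 hairpins in RPM of miRNA reads (log axis) by library, with exact 95% counting intervals, filled for 3p arms and open for 5p arms, and triangles mark the level of 9 reads where an arm was listed at 0. miR-148a-3p goes from 103 RPM in B16 cells to 217925 RPM in JB6 exosomes, while miR-148b-3p and miR-152-3p are lowest in JB6 exosomes, at 932 and 472 RPM.

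B16 exosomes were set against B16 cells, which asks how the family in the vesicles compares with that in the cells they came from. miR-148a-3p was the member that stood apart, with a share 20.8-fold higher in the exosomes (16.7 to 25.6). The shares of miR-148b-3p and miR-152-3p were 1.61-fold (1.48 to 1.75) and 1.56-fold (1.36 to 1.78) those of the cells. At its share in the cells miR-148a-3p would have given 4.72 reads in the exosome library, below the lowest count listed, and 98 were counted. The same calculation gave 348 reads for miR-148b-3p and 139 for miR-152-3p, where 560 and 216 were counted.

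A miRNA with 30 or more reads over a pair of libraries was called higher or lower at 2-fold or more, where the interval also left out 1. Of the 4 members 3 reached 30 reads, and of these miR-148a-3p was called higher and none lower. Over all 422 miRNAs tested in this comparison 8.53% were called higher and 7.82% lower. Of the 422, 267 got no call because a listed 0 left the ratio unresolved, which held for none of the 3 members tested. The log2 ratios of the members were 4.38, 0.69 and 0.64, beside a median of 0.03 over the 144 miRNAs listed in both libraries, among which miR-148a-3p was number 10 from the highest. The result for miR-148a-3p depended on the scaling. In the authors' own normalized values it stood at 93.9 RPM in the cells and 116 RPM in the exosomes, a 1.23-fold difference that missed the rule. The authors' values of miR-148b-3p were 6915 and 661 RPM, and those of miR-152-3p were 2758 and 255 RPM, so both were lower in the exosomes on that scale, on which 60.9% of all miRNAs tested were called lower.

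The balance between members does not depend on the scaling. miR-148b-3p had 2.51 reads per read of miR-152-3p in the cells (2.47 to 2.55) and 2.59 in the exosomes (2.21 to 3.05). The change of that balance was 1.03-fold (0.883 to 1.21, an interval for counting error on the log scale), which does not exclude 1. miR-148a-3p had 0.0136 reads per read of miR-148b-3p in the cells and 0.175 in the exosomes, a 12.9-fold change (10.3 to 16.1). Against miR-152-3p the change was 13.3-fold (10.4 to 17.1). Within the family, then, any difference in the proportion of miR-148b-3p to miR-152-3p was within counting error, and the exosomes held relatively more miR-148a-3p.

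JB6 exosomes were set against B16 cells, the 2 deep libraries, which differ both in line and in being vesicles or cells. miR-148a-3p was 2109-fold higher in JB6 exosomes (1969 to 2261), while miR-148b-3p was 8.17-fold lower (7.91 to 8.43) and miR-152-3p 6.44-fold lower (6.16 to 6.73). Of the 3 members tested 1 was called higher and 2 lower, and over all 501 miRNAs tested 26.1% were called higher and 60.7% lower. The log2 ratios were 11.04, -3.03 and -2.69, and the median over the 305 miRNAs listed in both was -1.47. By this ratio miR-148a-3p was number 3 from the highest, miR-152-3p number 198 and miR-148b-3p number 210. The size of the ratio of miR-148a-3p depended on the scaling, at 5372-fold with TMM factors and 12603-fold with DESeq2 size factors. With DESeq2 size factors the ratios of the lower members were 1.37-fold and 1.08-fold below 1, and neither met the rule. On that scaling the balance over all miRNAs turned, with 40.7% called higher and 26.7% lower.

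B16 exosomes were set against JB6 exosomes, which compares the vesicles of a tumour line with those of a line labelled normal. The share of miR-148a-3p in B16 exosomes was 102-fold lower (83.3 to 125), while that of miR-148b-3p was 13.2-fold higher (12.03 to 14.4) and miR-152-3p 10.03-fold higher (8.68 to 11.5). Of 3 members tested 2 were called higher and 1 lower, where 31.3% of the 300 miRNAs tested were called higher and 11.7% lower. The log2 ratios were -6.67, 3.72 and 3.33, and the median over the 131 miRNAs listed in both libraries was 2.62. By this ratio miR-148b-3p was number 51 from the highest, miR-152-3p number 56 and miR-148a-3p number 130. The higher calls depended on the scaling, and so did the size of the lower one. miR-148a-3p was 524-fold lower with TMM factors, 662-fold with DESeq2 size factors and 1506-fold with the authors' totals. The balance over all miRNAs turned under the same scalings, to 20.3% higher and 32.3% lower with TMM, 19% and 36.3% with DESeq2, and 13.3% and 51% with the authors' totals. With TMM factors miR-152-3p was 1.94-fold higher and missed the rule, and in the authors' values the ratios of both members lay below 1, by 1.13-fold for miR-148b-3p and 1.48-fold for miR-152-3p, short of the rule. These 3 comparisons share libraries, so their values are not independent of each other.

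**Figure D3:**
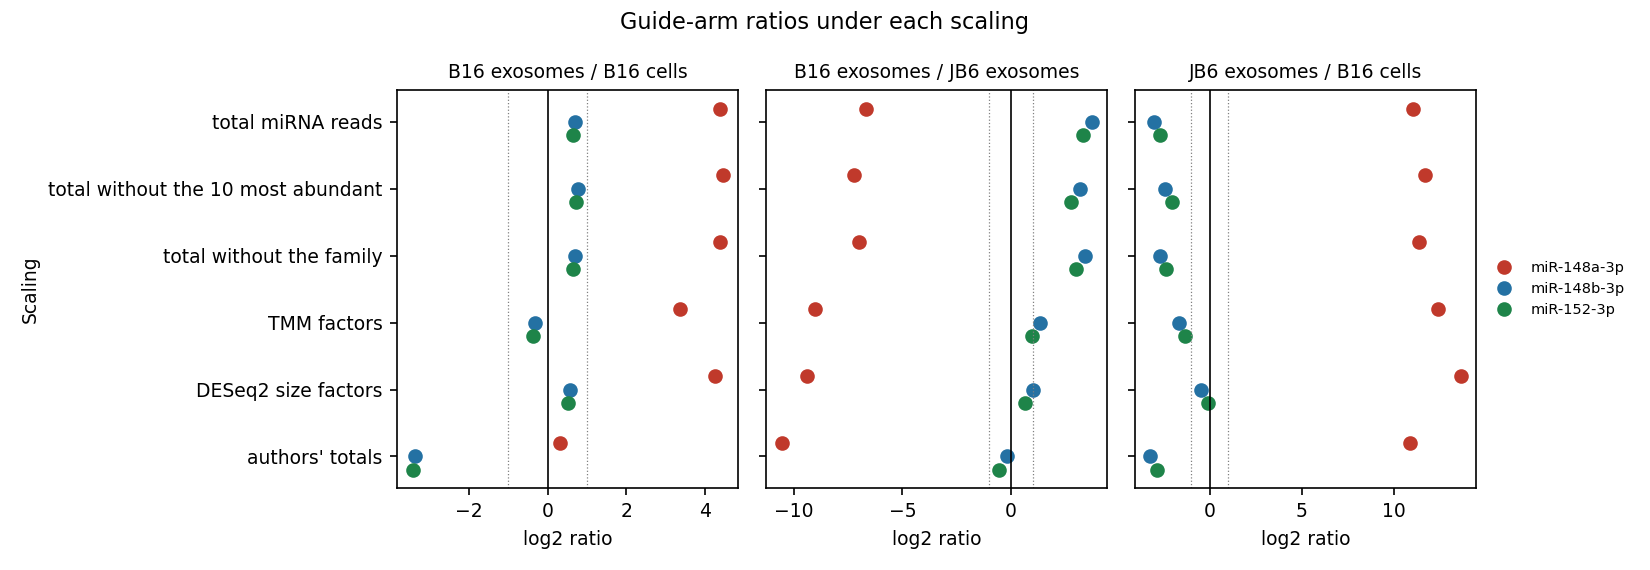
Each panel gives the log2 ratio of the 3 guide arms in 1 pair of libraries (horizontal axis) under 6 scalings (vertical axis), with dotted lines at 2-fold. The points of miR-148a-3p stay on 1 side of 0 in every panel, at 4.38 with total miRNA reads and 0.30 with the authors' totals in the first panel, while those of miR-148b-3p and miR-152-3p cross 0 in the first and second panels.

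The balance of the Copz-intron members changed less than that of miR-148a-3p. In JB6 exosomes miR-148b-3p had 1.98 reads per read of miR-152-3p (1.87 to 2.08), which was 0.788 times the balance of B16 cells (0.746 to 0.832). Over the same pair of libraries the balance of miR-148a-3p to miR-148b-3p changed 17222-fold (15972 to 18570). In JB6 exosomes miR-148b-3p reads equalled 0.428% of those of miR-148a-3p and miR-152-3p reads 0.216%. What part of these counts came from misread or trimmed copies of the more abundant member was not tested.

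Of the miRNAs listed in all 3 libraries, miR-122-5p, the predominant miRNA of hepatocytes, had the pattern most like that of miR-148a-3p. Likeness was measured as the distance between pairs of log2 ratios to B16 cells, over the 132 miRNAs listed in every library. Any miRNA with a listed 0 was left out, such as miR-486a-5p and miR-206-3p, which were also higher in JB6 exosomes than in B16 cells. The distance was 1.58 for miR-122-5p. It was 4.76 for miR-127-3p, 5.51 for miR-100-5p, 6.69 for miR-379-5p and 7.45 for miR-423-5p, the next 4 in order. miR-122-5p had 421 reads in B16 cells, 24 in their exosomes and 1129522 in JB6 exosomes, so it too was lowest as a share in the cells and highest in JB6 exosomes. miR-148b-3p and miR-152-3p lay on the other side of 0 for JB6 exosomes.

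**Figure D4:**
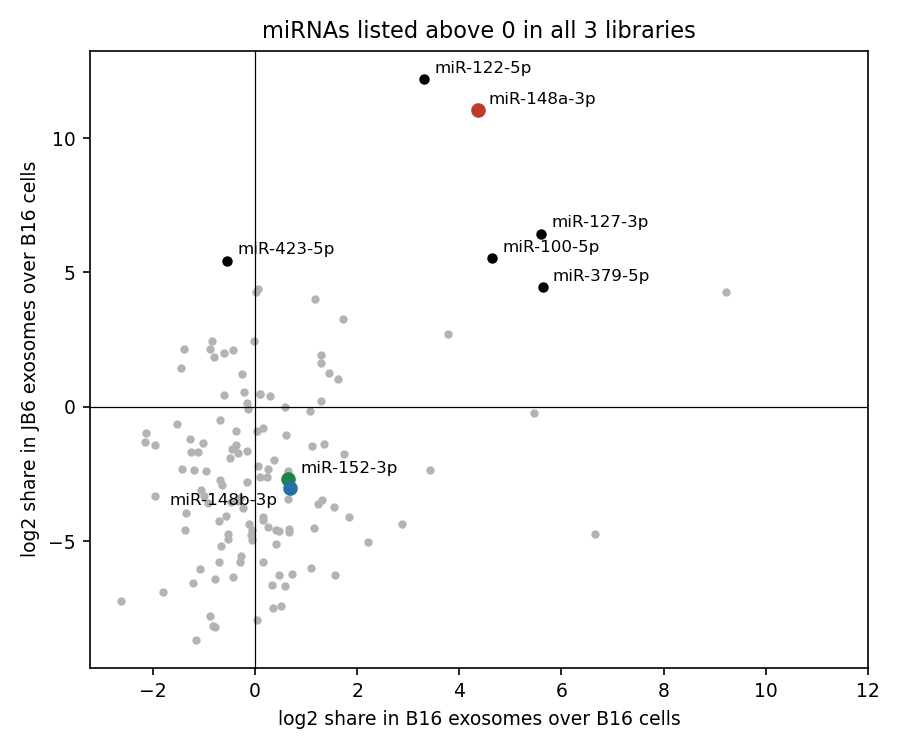
Each point is 1 of the 132 miRNAs listed above 0 in all libraries, placed by the log2 ratio of its share in B16 exosomes (horizontal) and in JB6 exosomes (vertical) to its share in B16 cells. miR-148a-3p sits beside miR-122-5p at 4.38 and 11.04, while miR-148b-3p and miR-152-3p overlie each other at 0.69 and -3.03 and at 0.64 and -2.69.

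Markers of some other tissues were also higher in JB6 exosomes, where miR-148a-3p was high. Every red-cell and muscle entry was higher there than in B16 cells, though by unequal amounts, while the liver list was mixed. Of the liver list, miR-122-5p had 53.1 RPM in B16 cells, 525 in their exosomes and 251231 in JB6 exosomes. miR-192-5p had 523, 438 and 1222 RPM. In contrast, miR-194-5p was lower in JB6 exosomes, at 28.2 RPM, than in B16 cells, at 110 RPM. Its listed 0 in B16 exosomes allows up to 197 RPM, so its place there cannot be read. miR-122-3p was listed in JB6 exosomes alone, at 3.78 RPM. The list summed to 686, 963 and 252484 RPM, nearly all of the last value being miR-122-5p. The red-cell list summed to 20.9 RPM in B16 cells and 7478 in JB6 exosomes, of which miR-486a-5p, whose counts equal those of miR-486b-5p and were taken once, held 19.3 and 7339, miR-451a 1.64 and 135, and miR-144-3p a listed 0 and 4.45. Of the muscle list, miR-206-3p was listed at 0 in B16 cells and had 3696 RPM in JB6 exosomes, miR-1a-3p had 1.39 and 4.67 RPM, and miR-133a-3p a listed 0 and 5.56 RPM. All entries of the red-cell and muscle lists were listed at 0 in B16 exosomes, where 9 reads are 197 RPM, so no order can be read there. The epithelial list was lower in JB6 exosomes, at 7.78 RPM against 23.0 in B16 cells. The melanocyte list was also lower there, with 5742 RPM in B16 cells, 5780 in their exosomes and 782 in JB6 exosomes. Most of each sum was miR-146a-5p, at 3075, 3963 and 779 RPM. miR-211-5p had 2660 RPM, 1817 RPM and a listed 0, and miR-204-5p 7.57 RPM, a listed 0 and 3.11 RPM. The part of other tissues or of medium in the level of miR-148a-3p was not tested.

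The counts of miR-148a-3p in the B16 libraries were also set against those of JB6 exosomes, the library with the most reads of it. The 98 reads in B16 exosomes equalled 0.0100% of the JB6 exosome reads of this miRNA, and the 819 in the cells 0.0836%. For miR-122-5p the shares were 0.00212% and 0.0373%. miR-148a-3p had 0.867 reads per read of miR-122-5p in JB6 exosomes, 4.08 in B16 exosomes (2.59 to 6.67) and 1.95 in B16 cells (1.73 to 2.19). Both B16 ratios were above that of JB6 exosomes. Where the reads of this pair in the B16 libraries came from was not tested.

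The 3p arm held more reads than the 5p arm of its hairpin in every library, for all 3 hairpins. In B16 cells the 5p arm gave 7.72% of the reads of the miR-152 hairpin (7.40 to 8.05), with 2013 reads, and 0.764% of those of miR-148b (0.696 to 0.836), with 464 reads. For miR-148a it was listed at 0, which allows at most 1.09%. In B16 exosomes every passenger was listed at 0, which allows at most 4.0% for miR-152, 1.58% for miR-148b and 8.41% for miR-148a. In JB6 exosomes the 5p share was 0.749% for miR-152 (0.429 to 1.21), on 16 reads, at most 0.214% for miR-148b and 0.00174% for miR-148a (0.00101 to 0.00278), on 17 reads. In all, 3p was the more abundant arm in 50.5% of the 222 hairpins with 30 or more reads in B16 cells, 45.9% of 74 in B16 exosomes and 52.8% of 178 in JB6 exosomes.

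The passengers of miR-152 and miR-148b were scarcer in JB6 exosomes than the guides alone would give. At the arm balance of B16 cells, the 2120 reads of miR-152-3p in JB6 exosomes go with 177 of miR-152-5p, and 16 were counted. The 4189 reads of miR-148b-3p go with 32.2 of miR-148b-5p, which was listed at 0. As shares, miR-152-5p was 71.4-fold lower in JB6 exosomes than in B16 cells (43.8 to 125), and miR-148b-5p was at least 29.2-fold lower, or 15.3-fold with counting error. In B16 exosomes the same calculation gave 18.1 reads of miR-152-5p, where at most 9 were present, and 4.31 of miR-148b-5p, which the lowest listed count would have hidden.

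A lower share of the lesser arm was not particular to these hairpins. Among the 49 hairpins with 1000 or more reads over both arms in B16 cells and in JB6 exosomes, a minimum chosen after the data were seen, the arm that was lesser in the cells took a lower share in JB6 exosomes in 28, a higher share in 12, and could not be ordered in 9. The order was read from the shares alone, with no counting interval or fold rule, and a listed 0 left the 9 open. miR-148b and miR-152 are among the 28, and miR-148a had too few reads in the cells to enter. The median share of that arm was 1.10% in B16 cells and at most 0.310% in JB6 exosomes, taking 9 reads for a listed 0.

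**Figure D5:**
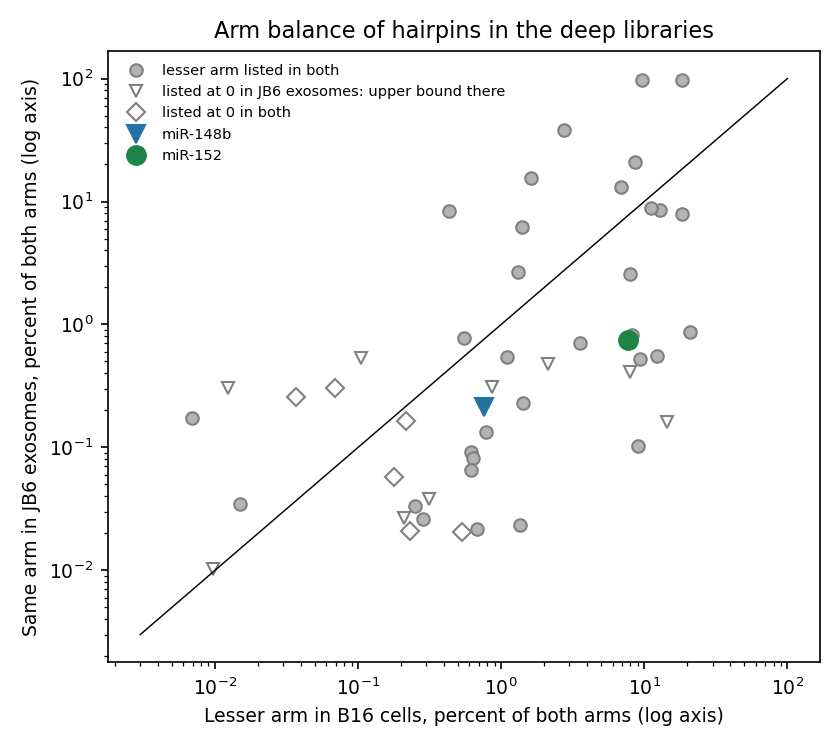
Each point is 1 of the 49 hairpins, placed by the percent of its reads from the arm that was lesser in B16 cells, in B16 cells (horizontal, log axis) and in JB6 exosomes (vertical, log axis), with equality as a line and open symbols for bounds set at 9 reads. miR-152 goes from 7.72% to 0.749% and miR-148b from 0.764% to at most 0.214%, and both belong to the 28 hairpins with a resolved position below the line.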

How the data were processed

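Each of the 3 libraries has a deposited table of 1915 mature miRNAs. Per the file headers it holds a total count of reads, which the authors did not normalize, and a normalized value. The authors' normalized values are in RPM and equal the count times a constant of each table. The total behind it was 8721363 in B16 cells, 847694 in their exosomes and 5626936 in JB6 exosomes. It exceeds the summed miRNA counts, which were 7925726, 45677 and 4495956 in the same order. In proportion the gap was by far the largest in B16 exosomes. What that total counts, and the treatment of strand and multiple matches, are not given here. bcl2fastq, BWA and mm10 are named in the submitters' processing notes, without versions.

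Groups came from the labels. With 1 library per group no test was run. Ratios of shares of miRNA reads were computed for the whole table with exact conditional binomial 95% intervals (SciPy 1.17.1, checked on simulated counts), at 30 or more reads over a pair, with 9 reads for a listed 0. Alternatives were TMM (edgeR 4.0.16), DESeq2 1.42.0 size factors, the authors' totals, totals without the 10 most abundant miRNAs of any library or without the family, other minimums, a stricter rule and summed members. Sequences were matched by name to RefSeq (GRCm38.p6), for 1623 entries and all 6 arms, and genes to GENCODE M21. Named miRNAs were the members, the other arms, neighbours in count order, the 5 most like miR-148a-3p and up to 4 of each of 6 marker lists. Members and lists were chosen with earlier results of these data known.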

Additional observations from a re-analysis of the deposited data

How the results depend on the processing

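No paired analysis was possible because each group held 1 library. Over 5 other scalings, 11 of 45 values of the 9 guide-arm log2 ratios lost their call or turned. The 3 other minimums and the other treatment of a listed 0 could not move these ratios, since every guide arm had more reads, and the stricter rule and the summed members changed no call. With TMM, miR-148b-3p and miR-152-3p turned to -0.33 and -0.38 in B16 exosomes against B16 cells, and miR-152-3p missed the rule at 0.96 against JB6 exosomes, leaving 1 member higher. With DESeq2 size factors it missed it at 0.62, leaving 1 higher, and in JB6 exosomes against B16 cells miR-148b-3p and miR-152-3p missed it at -0.45 and -0.11, leaving 0 lower. With the authors' totals, B16 exosomes against B16 cells gave 0.30 for miR-148a-3p, -3.39 for miR-148b-3p and -3.44 for miR-152-3p, so 0 members were higher and 2 lower, and against JB6 exosomes miR-148b-3p and miR-152-3p turned to -0.17 and -0.56, leaving 0 higher. These shifts are set by construction, since a scaling moves every log2 ratio of a comparison alike. In B16 exosomes against B16 cells the shift was -1.02 with TMM and -4.08 with the authors' totals. Summing miR-148b-3p and miR-152-3p into 1 entry left 1 higher in B16 exosomes against JB6 exosomes and 1 lower in JB6 exosomes against B16 cells. A minimum of 10 reads, or none, added miR-148a-5p, giving 2 members higher in JB6 exosomes against B16 cells. With 9 reads for a listed 0, the 3p share was 98.9% for miR-148a in B16 cells, 91.6%, 98.4% and 96.0% for miR-148a, miR-148b and miR-152 in B16 exosomes, and 99.8% for miR-148b in JB6 exosomes. With a minimum of 300 reads, added after the data were seen, the lesser arm was lower in JB6 exosomes in 38 and higher in 24 of 79 hairpins, and with 3000 reads in 20 and 8 of 33. The depth of B16 exosomes limits the passenger arms, none of which was listed there.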

Other observations

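Among the 31 hairpins with 10000 or more reads of the more abundant arm in JB6 exosomes, a minimum chosen after the data were seen, miR-122 and miR-148a had the lowest shares of the lesser arm, at 0.00151% and 0.00174%. Each had 17 reads of that arm. The next hairpins in order were miR-99a, miR-100 and miR-320, whose lesser arms were listed at 0, which allows at most 0.0103%, 0.0204% and 0.0208%, so their place relative to miR-148a is not fixed. The lesser arm was listed for 23 of the 31. The lowest of the other listed shares was 0.0215%, for miR-378a, on 11 reads.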
